A study of Mus musculus with 109 samples.

Results

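The CC chemokine genes Ccl2, Ccl3, Ccl4, Ccl5, Ccl6, Ccl7, Ccl8, Ccl9 and Ccl12 were taken by gene identifier from a table of read counts for whole mouse retina, 9 of 37315 genes. The rule used names and no measured value, but the genes were chosen with earlier results of these data known. CC chemokines are small secreted proteins named for a pair of adjacent cysteines near their start. They bind G protein-coupled receptors on leukocytes and draw these cells along a gradient, and in retina and brain they are made by microglia, macroglia, endothelium and leukocytes that enter from the blood. Ccl2, Ccl7 and Ccl12 act on CCR2, the receptor that brings monocytes into inflamed tissue. Ccl8 is a relative of these that in mouse acts on CCR8. Ccl3, Ccl4 and Ccl5 attract macrophages and T cells, Ccl3 and Ccl5 among others through CCR1. Ccl6 and Ccl9 are rodent CCR1 ligands that myeloid cells express.

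Eyes of C57BL/6J mice (WT) or of mice deficient in Sarm1 (Sarm1-/-), given as 2 to 4 months old, were injected into the vitreous with interleukin 1 alpha (IL1A), tumour necrosis factor (TNF), both proteins (IL1A+TNF) or phosphate buffered saline (PBS). The question was which transcripts respond to each cytokine around the loss of retinal ganglion cells, and whether SARM1, an enzyme that drives axon degeneration, changes that response. The table held retinas of 64 mice, with both eyes of 45 mice. Every group, PBS included, had the injury of the injection, and no uninjected retina was in the table.

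In sequencing batch 1, all WT, the day 2 groups were 31 PBS, 8 TNF, 9 IL1A and 10 IL1A+TNF retinas. Day 14 had 7 PBS and 6 TNF retinas, and day 35 had 6 PBS and 9 TNF retinas. Batch 2, all at day 2, held 5 WT PBS, 6 WT IL1A+TNF, 6 Sarm1-/- PBS and 6 Sarm1-/- IL1A+TNF retinas. The protocol text of the labels gives harvest at 2 days for all samples, so days were taken from the time label of each sample. Most PBS retinas came from the opposite eye of a treated mouse, so they were controls within the animal and not untreated mice. The Sarm1-/- mice lacked the gene throughout the body, not in 1 cell type.

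All 9 genes lie on chromosome 11 in the mouse build GRCm38, in groups of neighbours that share receptors. Ccl2 (82035571 to 82037453, plus strand) is followed by Ccl7 at 10.1 kb, Ccl12 at 66.3 kb and Ccl8 at 79.6 kb from the start of Ccl2. Ccl11, which is not among the 9, lies between Ccl7 and Ccl12. Ccl5, Ccl9, Ccl6, Ccl3 and Ccl4 form another group between 1494.9 and 1627 kb. Ccl9 (83572919 to 83578636) and Ccl6 (83587882 to 83593087) stand side by side on the minus strand. Sarm1 itself lies 3537.8 kb to the other side of Ccl2 on the same chromosome. No run of 100 bases from the exons of any of the 9 genes occurred in another gene, so reads of that length were not shared between them.

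Ccl6 and Ccl9 had the most similar pattern from retina to retina of any pair of the 9 (given with the correlations further on), and their start regions from RefSeq (GRCm38.p6) are shown for that reason. Each holds 250 bases before and 50 bases after the annotated start, on the minus strand, written 5′ to 3′. The capitals mark the longest run of letters that both hold, 13 bases.
Ccl6, chr11:83593038-83593337: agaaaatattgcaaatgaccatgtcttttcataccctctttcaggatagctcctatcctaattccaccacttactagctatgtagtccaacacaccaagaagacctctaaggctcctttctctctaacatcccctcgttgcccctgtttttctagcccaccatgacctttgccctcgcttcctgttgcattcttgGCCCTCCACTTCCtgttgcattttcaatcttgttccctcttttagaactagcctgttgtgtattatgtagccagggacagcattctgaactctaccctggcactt
Ccl9, chr11:83578587-83578886: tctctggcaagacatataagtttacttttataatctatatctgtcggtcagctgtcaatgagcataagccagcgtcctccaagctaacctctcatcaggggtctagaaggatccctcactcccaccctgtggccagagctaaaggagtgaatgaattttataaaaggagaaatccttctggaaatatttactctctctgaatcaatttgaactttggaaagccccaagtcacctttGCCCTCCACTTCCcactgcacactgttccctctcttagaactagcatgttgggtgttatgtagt
The shared run ends 43 bases before the start of Ccl6 and 2 bases before that of Ccl9. RefSeq start regions were at hand for 5 of the 9 genes (Ccl3, Ccl6, Ccl8, Ccl9 and Ccl12). They were searched on both strands for the NF-kB consensus by its name, for the AP-1 word TGANTCA and for the C/EBP word TTGCNNAA. Only Ccl9 had a match, with an NF-kB match on the opposite strand, where the printed letters at 35 to 26 bases before the start read GGAAAGCCCC, and an AP-1 match, TGAATCA, at 53 to 47 bases before it. Of 32851 start regions, 4.51% held the NF-kB consensus, 7.81% the AP-1 word and 10.8% the C/EBP word. The motifs did not overlap one another in Ccl9. A match describes letters only.

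Library totals ran from 30014757 to 79064488 counts (median 39374202), with batch 2 libraries at 42875980 or more. The summed level of 5 rod genes was between 19200 and 55000 CPM (counts scaled by library size) in every retina, so the tissue matched its label. Sarm1 had group medians of 87.4 to 120 CPM in WT groups. It had medians of 44.3 CPM (37.3 to 53.2) in Sarm1-/- PBS and 37.4 CPM (26.2 to 46.8) in Sarm1-/- IL1A+TNF retinas, below every WT retina. Levels below are CPM after scaling by the trimmed mean of M values, and CPM are not corrected for gene length. Differences are log2 fold changes with standard errors from limma, with the false discovery rate (FDR) adjusted over all genes tested, and a gene is called changed at an FDR under 0.05.

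**Figure D1:**
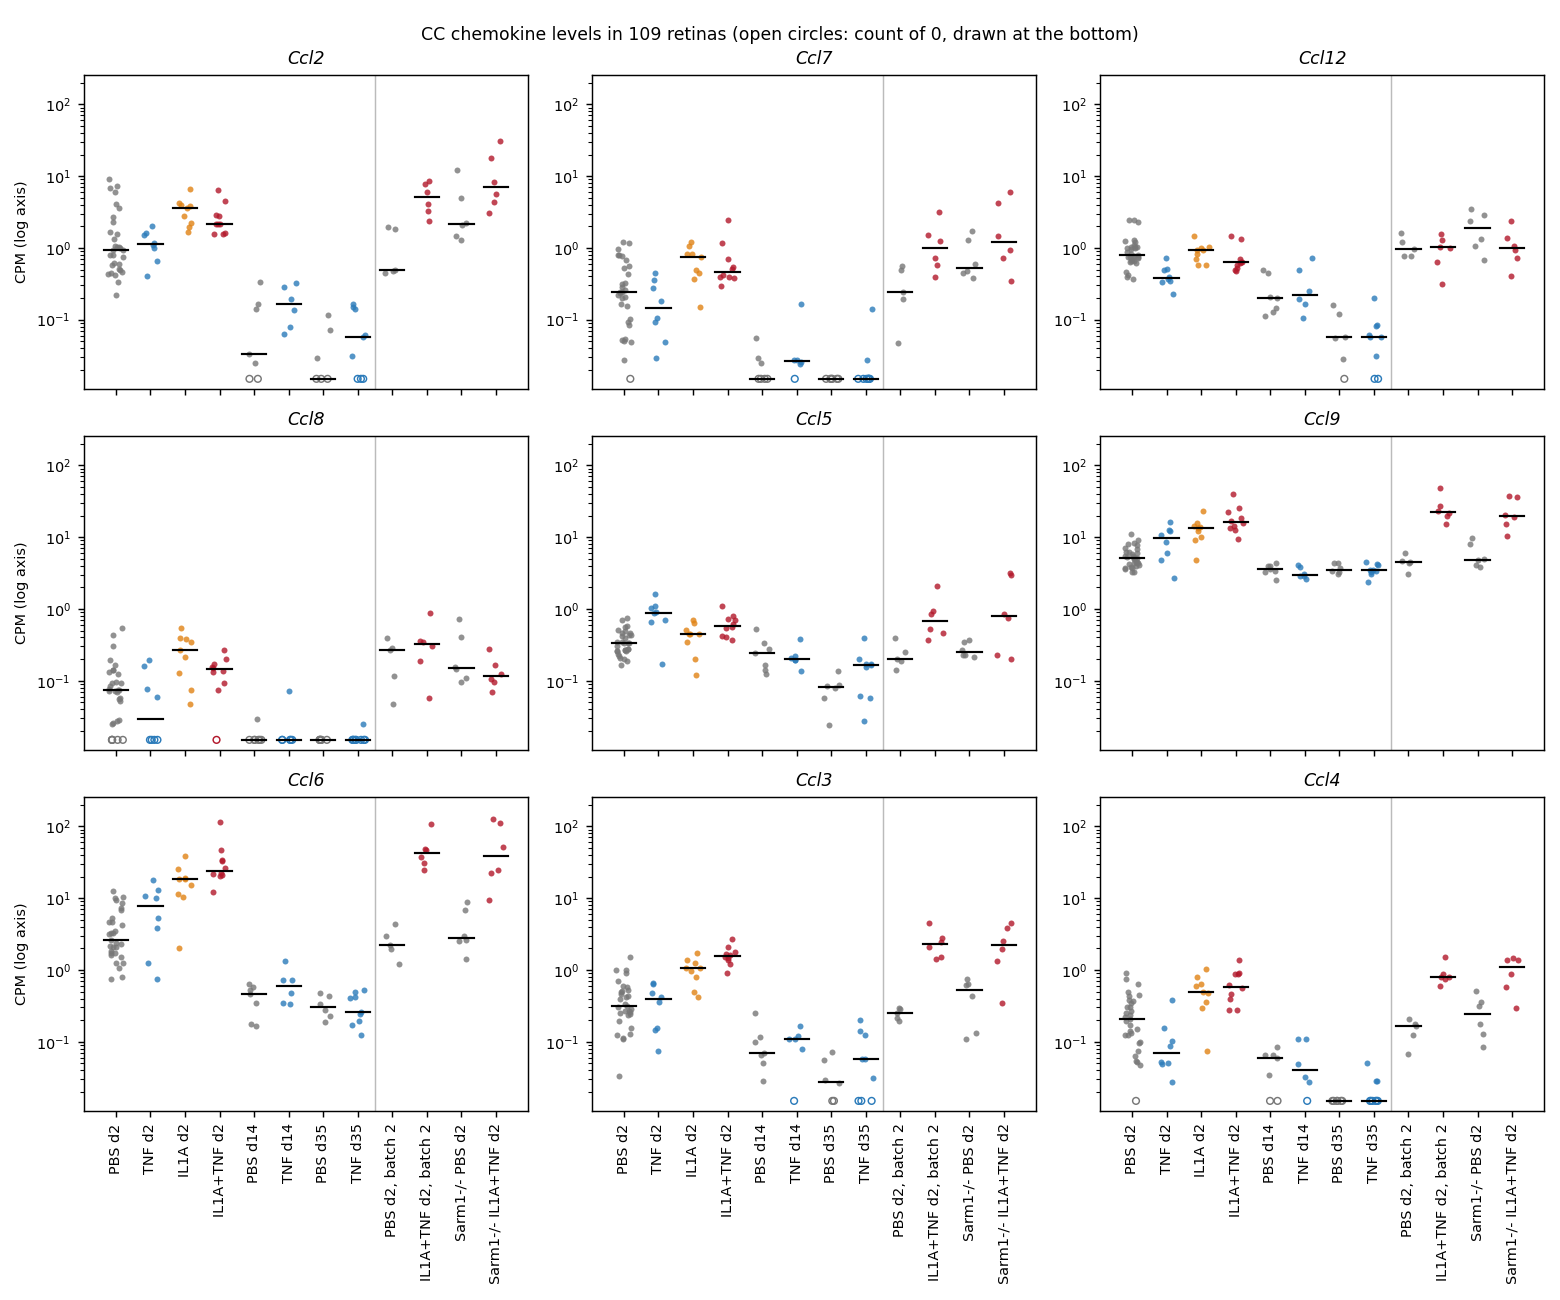
Level of each of the 9 CC chemokines in every retina, in CPM on a log axis, for the 12 groups; each point is a retina, black lines are group medians, open circles at the bottom are counts of 0, and the grey line sets off batch 2. Ccl6 and Ccl9 reach the highest levels in the IL1A+TNF groups, and the lowest group median of each gene is at day 14 or 35.

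At day 2 after IL1A+TNF, 7 of the 9 CC chemokines were higher than in PBS retinas, 2 did not pass the test and none was lower. Ccl6 led with a log2 difference of 3.15, followed by Ccl3 at 2.16 and Ccl9 at 1.68. Ccl4, Ccl7, Ccl2 and Ccl5 rose by 1.46, 1.28, 1.06 and 0.76. Of the 19548 genes tested, 25% were called higher and 25.5% lower, and the median log2 difference was 1.28 over the 9 genes against -0.023 over all genes.

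Ccl6 had a lowest, median and highest level of 0.74, 2.64 and 12.4 CPM in the 31 PBS retinas and of 12.3, 24.2 and 115 CPM in the 10 IL1A+TNF retinas. The groups touched at a single retina, and 9 of 10 IL1A+TNF retinas were above the highest PBS retina (log2 difference 3.15 ± 0.335 SE, FDR = 7.73e-12, limma). Ccl9 went from 3.24, 5.17 and 11.2 CPM to 9.53, 16.2 and 39.3 CPM (1.68 ± 0.178, FDR = 7.01e-12). It too had 9 of 10 retinas above the highest PBS retina. In the 8 mice with 1 PBS and 1 IL1A+TNF eye, the treated eye was the higher one in 8 of 8 for both genes.

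Among the attractants of macrophages and T cells, Ccl3 had 0.0334, 0.313 and 1.52 CPM in PBS and 0.899, 1.56 and 2.72 CPM in IL1A+TNF retinas (2.16 ± 0.233, FDR = 1.19e-11). All 10 treated retinas were above the PBS median, 5 of them above every PBS retina. Ccl4 ran from 0 over 0.209 to 0.91 CPM in PBS and from 0.277 over 0.587 to 1.38 CPM after IL1A+TNF (1.46 ± 0.305, FDR = 5.54e-05). Ccl5, which is best known for drawing T cells, had 0.166, 0.334 and 0.748 CPM in PBS against 0.367, 0.586 and 1.1 CPM (0.76 ± 0.211, FDR = 0.00205). For both genes the groups overlapped widely, with all 10 treated retinas above the PBS median and 2 above every PBS retina. In a fit with each mouse as a fixed block, which compares the eyes of 1 animal, Ccl3 (FDR = 0.00105) and Ccl5 (FDR = 0.028) kept their calls and Ccl4 did not (0.73, FDR = 0.221).

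Among the monocyte attractants, Ccl2 had 0.222, 0.949 and 9.03 CPM in PBS and 1.54, 2.18 and 6.33 CPM in IL1A+TNF retinas (1.06 ± 0.331, FDR = 0.0058). All 10 treated retinas exceeded the PBS median, but none exceeded the highest PBS retina, and the highest level of Ccl2 in the comparison was that of a PBS retina. The treated eye was the higher one in 5 of 8 mice. The call of Ccl2 was lost with DESeq2 (0.5, FDR = 0.325), with edgeR (0.49, FDR = 0.326) and with the mouse as a fixed block (0.04, FDR = 0.957).

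Ccl7 had 0, 0.242 and 1.22 CPM in PBS and 0.298, 0.462 and 2.44 CPM after IL1A+TNF (1.28 ± 0.385, FDR = 0.00421), with 1 of 10 treated retinas above every PBS retina. It lost its call with DESeq2 (0.93, FDR = 0.0523) and with the mouse block (0.92, FDR = 0.151). Ccl8 and Ccl12 did not pass the test. Ccl8 was near the limit of detection, with 0, 0.074 and 0.54 CPM in PBS and 0, 0.144 and 0.269 CPM after IL1A+TNF (0.63 ± 0.453, FDR = 0.255). Ccl12 had 0.37, 0.802 and 2.41 CPM in PBS and 0.471, 0.628 and 1.48 CPM in IL1A+TNF retinas (-0.34 ± 0.217, FDR = 0.192). Only 2 of 10 treated retinas exceeded the PBS median of Ccl12, and the treated eye was the lower one in 7 of 8 mice. Ccl12 was the 1 gene of the CCR2 group whose fitted difference was below 0.

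Summed marker levels of neutrophils, monocytes and microglia rose with these chemokines. None of the 2 T and NK cell or 3 B cell markers that could be tested was called. The summed level of 7 neutrophil markers had a lowest, median and highest value of 2.77, 13.4 and 113 CPM in PBS and 105, 163 and 633 CPM in IL1A+TNF retinas, with 4 of the 6 markers that could be tested called higher. Monocyte markers went from 1.61, 7.22 and 22.4 CPM to 43.2, 54.5 and 100 CPM, with 5 of 6 higher. Microglia markers went from 69.7, 96.8 and 125 CPM to 170, 185 and 305 CPM, with 5 of 8 higher and 2 lower. Their part in the chemokine differences was not tested. In bulk retina, more cells that make a transcript and more transcript per cell cannot be told apart. The IL1A+TNF retina of replicate 2 had the highest Ccl6, Ccl7 and Ccl9 levels and the highest neutrophil, monocyte and microglia sums of its group. Without both retinas of its mouse, the same 7 chemokines were called, with Ccl6 at 3.02, Ccl9 at 1.58 and Ccl7 at 1.13 (FDR = 0.0155).

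**Figure D2:**
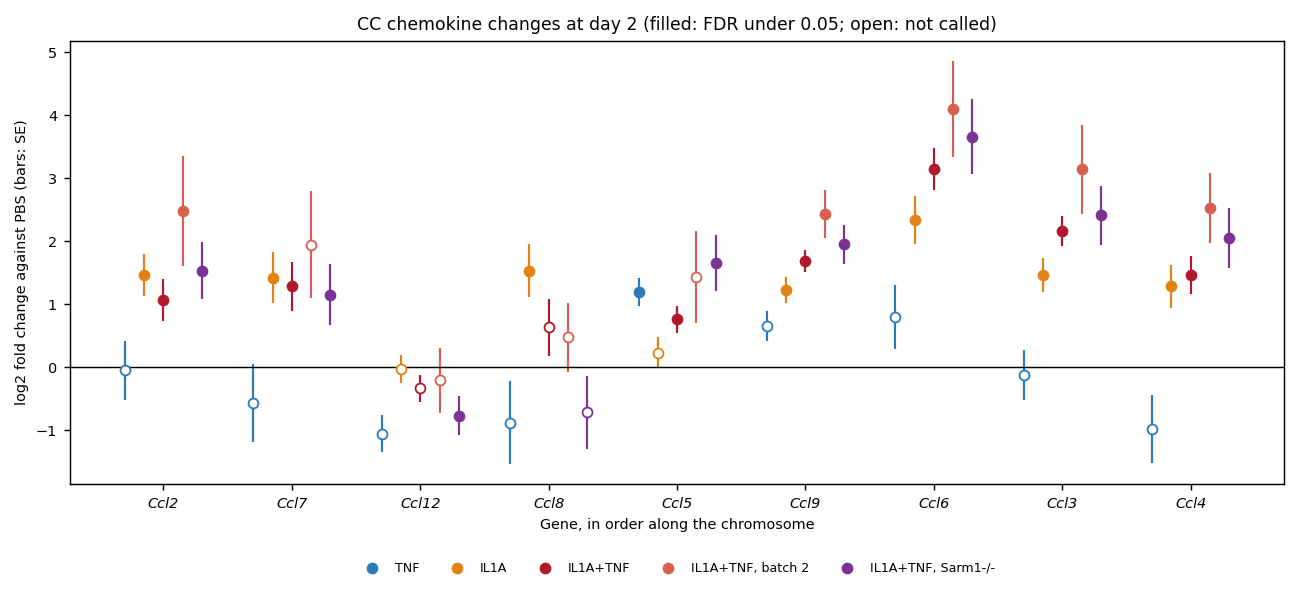
Log2 fold change against PBS of the 9 CC chemokines, in chromosome order, after TNF, IL1A and IL1A+TNF at day 2 in WT batch 1, and after IL1A+TNF in WT batch 2 and in Sarm1-/- retinas; bars are standard errors and filled points have an FDR under 0.05. Ccl6, Ccl9, Ccl3, Ccl4 and Ccl2 are filled in each IL1A or IL1A+TNF comparison, while Ccl5 is the single filled point after TNF.

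After IL1A alone, 7 of the 9 genes were higher at day 2 and none was lower, against 12% of all genes tested called higher and 9.44% lower. The 7 differed from those of IL1A+TNF at 1 place each way, with Ccl8 called after IL1A and Ccl5 not. Ccl6 had 2.02, 18.5 and 38.7 CPM in the 9 IL1A retinas (2.34 ± 0.38, FDR = 2.52e-06). Ccl9 had 4.82, 13.3 and 22.9 CPM (1.22 ± 0.203, FDR = 3.6e-06). Of the 9 retinas, 6 exceeded every PBS retina for each of these genes, and the treated eye was the higher one in 7 of 7 mice.

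Ccl3 had 0.423, 1.06 and 1.72 CPM after IL1A (1.46 ± 0.272, FDR = 3.15e-05) and Ccl4 0.075, 0.494 and 1.02 CPM (1.28 ± 0.341, FDR = 0.00365). For each, 1 IL1A retina was above all PBS retinas. Ccl5 had 0.121, 0.448 and 0.702 CPM (0.23 ± 0.251, FDR = 0.589), with no retina above the highest PBS retina and the lowest below all of them.

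Ccl2 had its highest day 2 median of batch 1 in this group, at 1.69, 3.63 and 6.67 CPM (1.46 ± 0.33, FDR = 0.000578), with 9 of 9 retinas above the PBS median and none above the highest PBS retina. Ccl7 had 0.151, 0.742 and 1.19 CPM (1.42 ± 0.403, FDR = 0.00688), also within the range of the PBS retinas. Ccl8 had 0.0476, 0.267 and 0.544 CPM (1.53 ± 0.418, FDR = 0.00468), and 1 retina passed the highest PBS value. Ccl12 had 0.569, 0.936 and 1.45 CPM (-0.03 ± 0.217, FDR = 0.951), inside the PBS range throughout. Ccl2 and Ccl7 lost their calls with DESeq2 (0.84, FDR = 0.171, and 0.87, FDR = 0.15) and with edgeR (0.83, FDR = 0.15, and 0.88, FDR = 0.125), each of which called 5 of the 9. With the mouse as a fixed block, only Ccl6 (2.33, FDR = 0.00541) and Ccl9 (1.32, FDR = 0.00861) of the 8 genes that could be tested kept their calls. Ccl2 had an FDR of 0.534 there, Ccl7 0.394, Ccl3 0.319 and Ccl4 0.336. Neutrophil markers summed to 53.8, 135 and 303 CPM in IL1A retinas and monocyte markers to 15.2, 53.1 and 71.6 CPM, both mostly above PBS, and their part was not tested.

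TNF alone gave a different picture at day 2, with Ccl5 as the 1 CC chemokine called. Only 96 genes, 0.491% of those tested, were called in either direction, with 0.471% higher. Ccl5 had 0.173, 0.889 and 1.6 CPM in the 8 TNF retinas against 0.166, 0.334 and 0.748 CPM in PBS (1.19 ± 0.221, FDR = 0.00373). Its median was the highest of the day 2 groups of batch 1, and 5 of 8 TNF retinas exceeded every PBS retina, although the lowest TNF retina sat at the bottom of the PBS range. The treated eye was the higher one in 6 of 8 mice. The call was lost with the mouse as a fixed block (1.1, FDR = 0.0863) and without TNF replicate 7 (FDR = 0.0597).

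Ccl6 in the TNF group ran from 0.752 over 7.69 to 18.1 CPM (0.8 ± 0.51, FDR = 0.789), and Ccl9 from 2.7 over 9.62 to 16.3 CPM (0.65 ± 0.239, FDR = 0.359). Both medians were above the PBS median, 2 and 3 of 8 retinas exceeded every PBS retina, and the remaining retinas lay among the PBS values, apart from the lowest retina of Ccl9, which was below all of them. Ccl9 passed the threshold with edgeR (0.74, FDR = 0.0439) and without TNF replicate 6 (FDR = 0.0129). The TNF retinas were also spread widely in monocyte markers, from 0.188 over 39.1 to 59.9 CPM in sum, whereas neutrophil markers summed to 3.13, 18.7 and 42.2 CPM, inside the PBS range. Neither list had a called member. Microglia markers summed to 64.2, 147 and 164 CPM, against 69.7, 96.8 and 125 CPM in PBS, with 2 of 8 called higher, and dendritic cell markers to 4.14, 10.7 and 15.1 CPM, against 4.24, 5.76 and 8.95 CPM, with 1 of 5 called higher. TNF replicate 6 had the lowest monocyte (0.188 CPM), neutrophil (3.13 CPM) and microglia (64.2 CPM) sums of its group. The PBS eye of the same mouse, replicate 17, had the highest monocyte sum of the day 2 PBS retinas of batch 1 (22.4 CPM). The reason for this reversed order was not tested, and the TNF values that include this mouse should be read with it in mind. The part of the markers in the level of Ccl5, Ccl6 or Ccl9 was not tested.

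Ccl12 was lower in every TNF retina than the PBS median, at 0.228, 0.381 and 0.721 CPM, with 3 of 8 below the lowest PBS retina and the treated eye lower in 7 of 8 mice. This did not pass the test (-1.06 ± 0.295, FDR = 0.0846). It passed when all batch 1 days entered 1 fit (-1.06, FDR = 0.0382), with DESeq2 (-1.19, FDR = 0.00131), with edgeR (-1.19, FDR = 0.00913) and without TNF replicate 6 (FDR = 0.0254). Ccl3 had 0.0738, 0.389 and 0.655 CPM (-0.13 ± 0.394, FDR = 0.971) and Ccl4 0.0277, 0.0697 and 0.387 CPM (-0.98 ± 0.543, FDR = 0.73). Ccl2 had 0.407, 1.14 and 1.99 CPM (-0.05 ± 0.47, FDR = 0.992), Ccl7 0.0288, 0.145 and 0.443 CPM (-0.57 ± 0.613, FDR = 0.905), and Ccl8 was at 0 in 4 of 8 TNF retinas (-0.88 ± 0.655, FDR = 0.842). None of these 5 genes had a TNF retina above the highest PBS retina.

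Compared directly with TNF, IL1A+TNF retinas were higher for 5 of the 9 genes and lower for none, against 20% of all genes called higher. Ccl3 differed by 2.29 ± 0.393 (FDR = 4.14e-06), Ccl6 by 2.35 ± 0.483 (FDR = 8.03e-05), Ccl4 by 2.43 ± 0.559 (FDR = 0.00037), Ccl9 by 1.03 ± 0.247 (FDR = 0.000584) and Ccl7 by 1.85 ± 0.641 (FDR = 0.0176). Only for Ccl3 did the groups not overlap, the lowest IL1A+TNF retina at 0.899 CPM lying above the highest TNF retina at 0.655 CPM, as was so for 4.01% of all genes. Ccl5 went the other way without passing the test (-0.44, FDR = 0.172). With the mouse as a fixed block none of the 5 calls remained, with FDR values of 0.0986 for Ccl3, 0.148 for Ccl6 and 0.153 for Ccl9.

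IL1A against TNF set Ccl5 apart from 7 of the other genes, and Ccl9 was not called (0.57 ± 0.265, FDR = 0.171). Ccl5 was the 1 gene lower after IL1A (-0.96 ± 0.287, FDR = 0.0249), while 7 genes were higher, from Ccl12 at 1.03 (FDR = 0.0423) to Ccl8 at 2.41 ± 0.694 (FDR = 0.0198). Of all genes, 5.35% were higher and 3.67% lower. Ccl3 (1.6 ± 0.418, FDR = 0.00938) and Ccl4 (2.26 ± 0.579, FDR = 0.00799) kept their calls whichever of the 17 retinas was left out. Ccl2 (FDR = 0.0444) and Ccl6 (FDR = 0.0483) each lost theirs in 13 of 17 such fits, and Ccl7 (FDR = 0.043) and Ccl12 in 10. With the mouse as a fixed block no call remained.

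What TNF added to IL1A did not pass the test for any of the 9 genes, where 10.2% of all genes were called. With limma, 3 had an unadjusted p under 0.05 (Ccl3, Ccl6 and Ccl9), and with edgeR 2 (Ccl6 and Ccl9). Ccl3 had the smallest FDR (0.7 ± 0.268, FDR = 0.0837), followed by Ccl6 (0.82, FDR = 0.113) and Ccl9 (0.46, FDR = 0.156). In the fit over all batch 1 days Ccl3 (FDR = 0.0394) and Ccl6 (0.85, FDR = 0.0334) were called, and without IL1A+TNF replicate 9 all 3 were. Ccl8, Ccl2 and Ccl5 differed by -0.9 (FDR = 0.269), -0.4 (FDR = 0.55) and 0.53 (FDR = 0.24). The term for IL1A and TNF departing from the sum of their separate effects was called for no chemokine and for 3.52% of all genes, and ran from -0.67 for Ccl5 (FDR = 0.324) to 1.15 for Ccl4 (FDR = 0.356). No chemokine had an unadjusted p under 0.05 for this term with limma, and 3 did with edgeR (Ccl4, Ccl5 and Ccl12). The 3 treatments share their PBS retinas, so their differences from PBS are set side by side here and not correlated.

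In the WT retinas of batch 1 at day 2, females and males differed for none of the 9 genes at an FDR under 0.05, with 0.363% of all genes called. Ccl4 (female minus male 0.76, p = 0.00699, FDR = 0.268, limma) and Ccl6 (0.67, p = 0.0192, FDR = 0.378, limma) had an unadjusted p under 0.05, as did these and Ccl9 with edgeR. Whether sex changed the IL1A+TNF difference was tested in the same retinas, and no chemokine had an unadjusted p under 0.05 with limma or edgeR. The sexes were not compared in batch 2, which held the Sarm1-/- retinas.

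After TNF at day 14 and 35, only Ccl6 and Ccl9 had enough counts to be tested, and neither differed from the PBS retinas of the same day. Ccl6 had 0.166, 0.461 and 0.646 CPM in PBS and 0.339, 0.598 and 1.34 CPM in TNF retinas at day 14 (0.51 ± 0.394, FDR = 0.903). At day 35 it had 0.187, 0.305 and 0.483 CPM in PBS and 0.126, 0.256 and 0.525 CPM in TNF retinas (-0.2 ± 0.313, FDR = 0.928). Ccl9 had day 14 levels of 2.52, 3.57 and 4.34 CPM in PBS and 2.62, 2.98 and 4.05 CPM after TNF (-0.14 ± 0.133, FDR = 0.903). Its day 35 levels were 3.08, 3.51 and 4.31 CPM in PBS and 2.4, 3.45 and 4.48 CPM after TNF (-0.03 ± 0.106, FDR = 0.973). No gene of the 18023 tested at day 14 or the 17821 at day 35 was called (0% each), and neither chemokine had an unadjusted p under 0.05 with limma or edgeR.

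The other 7 genes were too low for the test on these days. Ccl5, the gene called after TNF at day 2, had 0.126, 0.241 and 0.527 CPM in PBS and 0.137, 0.201 and 0.384 CPM in TNF retinas at day 14. At day 35 it had 0.0242, 0.0821 and 0.137 CPM in PBS and 0.0276, 0.167 and 0.388 CPM after TNF, and the treated eye was the higher one in 5 of 6 mice. The groups overlapped on both days. In 1 fit of all days, the TNF difference of Ccl5 was smaller at day 14 than at day 2 by an unadjusted p of 0.00759 (-1.32 ± 0.483, FDR = 0.999, limma), so a change of the TNF difference with time did not pass the test, as for all genes (0%).

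**Figure D3:**
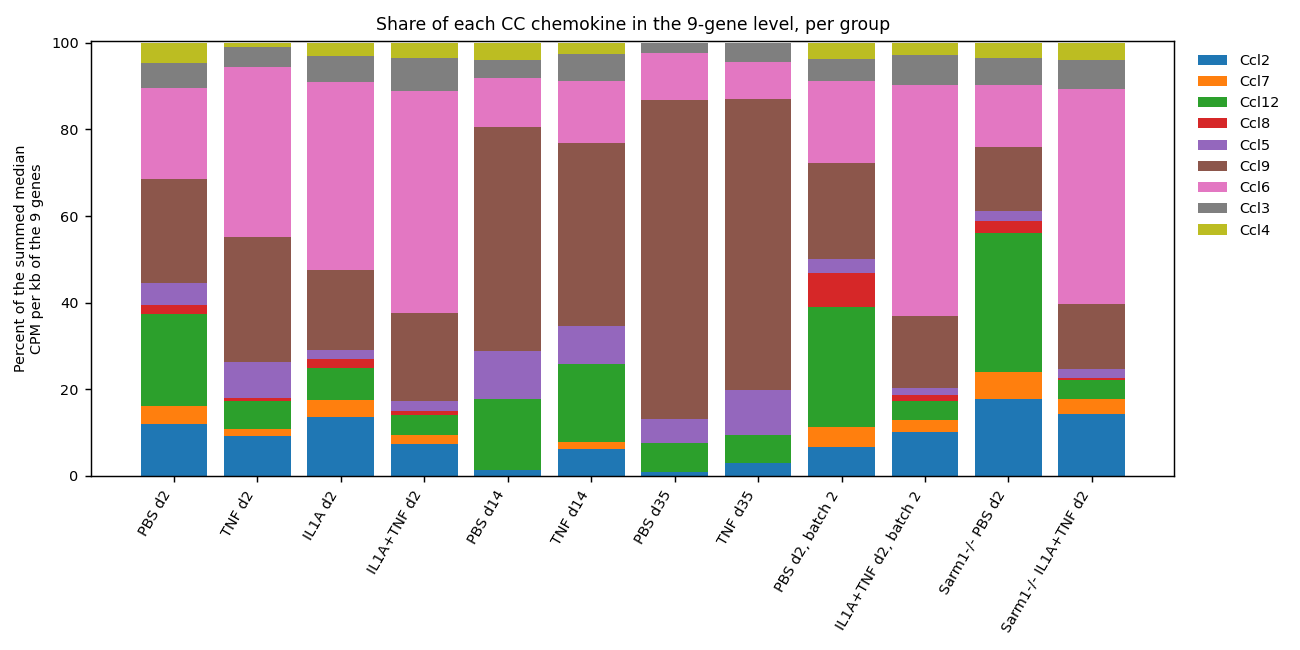
Share of each CC chemokine in the summed median level of the 9 genes per kb of exon, in percent, for the 12 groups. Ccl9 takes 73.7% in PBS retinas of day 35, whereas Ccl6 takes 51.3% after IL1A+TNF at day 2 in batch 1.

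The PBS retinas themselves changed over time. At day 14, 7 of 8 genes tested were lower than at day 2, against 10.2% of all genes, and at day 35 all 8 tested were lower, against 17.3%. The summed level of the 9 genes had a lowest, median and highest value of 5.2, 10.7 and 32.7 CPM at day 2, 3.78, 4.81 and 5.47 CPM at day 14 and 3.53, 4.12 and 4.92 CPM at day 35. The days are separate mice, and how far time after the injection and other differences between the sets of mice contribute cannot be told apart.

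Ccl2 had the largest fitted decrease, from 0.222, 0.949 and 9.03 CPM at day 2 to 0, 0.0332 and 0.337 CPM at day 14 (-4.17 ± 1.32, FDR = 0.0213) and 0, 0.0145 and 0.116 CPM at day 35 (-5.15 ± 1.454, FDR = 0.00494). It was at 0 in 3 of 6 PBS retinas at day 35, and no day 35 retina reached the lowest day 2 retina. Ccl12 had 0.112, 0.199 and 0.493 CPM at day 14 (-1.96 ± 0.419, FDR = 0.000707) and 0, 0.0565 and 0.16 CPM at day 35 (-3.73 ± 0.642, FDR = 1.44e-05), without overlap with day 2 at day 35. Ccl7 fell at day 14 (-3.21 ± 0.819, FDR = 0.00415), being at 0 in 4 of 7 retinas. Ccl8 was at 0 in 6 of 7 PBS retinas at day 14 and was not tested.

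At day 35, Ccl4, Ccl7 and Ccl8 were at 0 in all 6 PBS retinas. A floor of 3 counts over the group corresponds to 0.0136 CPM, while the pooled day 2 PBS levels were 0.265 CPM for Ccl4, 0.368 CPM for Ccl7 and 0.108 CPM for Ccl8. Ccl4 was thus at least 19.4-fold lower, Ccl7 at least 27-fold and Ccl8 at least 7.91-fold, which covers counting error only.

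Ccl6 had 0.166, 0.461 and 0.646 CPM at day 14 (-2.99 ± 0.818, FDR = 0.00749) and 0.187, 0.305 and 0.483 CPM at day 35 (-3.3 ± 0.915, FDR = 0.00426). Its groups did not overlap with day 2 on either day, which was so for 0.718% of all genes at day 14 and 3.45% at day 35 in this direction. At day 35, Ccl2, Ccl5 and Ccl12 also had no overlap with day 2. Ccl3 fell by 1.86 ± 0.573 at day 14 (FDR = 0.018) and by 3.28 ± 0.696 at day 35 (FDR = 0.000261). Ccl4 fell at day 14 (-2.09 ± 0.661, FDR = 0.0213). Ccl5 did not pass the test at day 14 (-0.53 ± 0.269, FDR = 0.174) and fell at day 35 (-2.06 ± 0.383, FDR = 4.53e-05). Ccl9 had the smallest decrease among the called genes on both days, with -0.58 ± 0.192 at day 14 (FDR = 0.0291) and -0.53 ± 0.197 at day 35 (FDR = 0.035).

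Summed levels of neutrophil, monocyte and microglia markers were lower on the later days as well. Neutrophil marker sums were 1.2, 1.92 and 3.14 CPM at day 14 and 1.14, 1.64 and 1.82 CPM at day 35, with Ly6g at 0 in all PBS retinas of both days. Monocyte sums were 0.493, 1.06 and 2.05 CPM at day 14 and 0.196, 0.42 and 1.38 CPM at day 35. Microglia sums were 50, 56.6 and 60.3 CPM and 37, 43.9 and 47.6 CPM, with all 8 markers called lower on each day. Their part was not tested. At day 2 the PBS retinas had opposite eyes with different treatments, and the highest Ccl2 level was 9.03 CPM beside an IL1A+TNF eye, 7.22 CPM beside an IL1A eye, 1.06 CPM beside a TNF eye and 3.65 CPM where the opposite eye was not in the table. The medians of Ccl2 did not follow that order, at 0.685, 1.64, 0.865 and 1.19 CPM for the same 4 sets. With only the 16 day 2 PBS retinas whose opposite eye was labelled neither IL1A nor IL1A+TNF, the 7 genes that could still be tested kept the same calls, Ccl9 at -0.59 (FDR = 0.0443) at day 14 and -0.53 (FDR = 0.048) at day 35. For 8 of these 16 the opposite eye was not in the table and its treatment is unknown, so the part of the opposite eye stays undecided.

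Per kb of exon, the makeup of the 9 genes differed between groups. In day 2 PBS retinas of batch 1, Ccl9 (24.2%) and Ccl12 (21.2%) had the largest shares of the summed median level. Ccl6 led after TNF (39.2%), IL1A (43.6%) and IL1A+TNF (51.3%), each time followed by Ccl9. Ccl9 led at day 14 with 51.8% in PBS and 42.2% in TNF retinas, and at day 35 with 73.7% and 67.3%. Batch 2 PBS retinas had Ccl12 first, with 27.6% in WT and 32.2% in Sarm1-/-. Ordered by group median CPM, Ccl6 ran from TNF and PBS at day 35 over PBS and TNF at day 14, the 3 day 2 PBS groups, TNF, IL1A and the batch 1 IL1A+TNF retinas to the Sarm1-/- and WT IL1A+TNF retinas of batch 2. Each group in that order overlapped the next.

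Batch 2 held a further set of WT retinas at day 2 after PBS or IL1A+TNF, in which 5 of the 9 genes were higher and none lower, against 13.1% of all 19668 genes called higher and 7.54% lower. Ccl6 was at 4.37, 1.93, 1.21, 2.99 and 2.23 CPM in the 5 PBS retinas and at 24.8, 42.4 and 107 CPM (lowest, median, highest) in the 6 IL1A+TNF retinas (4.1 ± 0.762, FDR = 0.000776). Ccl9 was at 6.03, 4.44, 3.1, 4.33 and 4.64 CPM in PBS and at 15.3, 22.5 and 49 CPM after IL1A+TNF (2.43 ± 0.378, FDR = 0.000143). Neither gene's groups overlapped.

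Ccl3 was at 0.253, 0.195, 0.213, 0.29 and 0.294 CPM in PBS and at 1.43, 2.29 and 4.44 CPM after IL1A+TNF (3.14 ± 0.709, FDR = 0.00357). Ccl4 was at 0.205, 0.124, 0.166, 0.067 and 0.176 CPM in PBS and at 0.592, 0.809 and 1.53 CPM after IL1A+TNF (2.52 ± 0.554, FDR = 0.00293). Ccl2 was at 1.96, 0.479, 0.497, 0.447 and 1.84 CPM in PBS and at 2.4, 5.09 and 8.54 CPM after IL1A+TNF (2.48 ± 0.871, FDR = 0.048). For these 3 genes too, every IL1A+TNF retina was above every PBS retina, as for 11.7% of all genes. The call of Ccl2 was lost in 9 of 11 fits that left out 1 retina (FDR from 0.0357 to 0.126) and with the mouse as a fixed block (2.27, FDR = 0.154).

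Ccl7 was at 0.489, 0.195, 0.0473, 0.246 and 0.568 CPM in the WT PBS retinas of batch 2 and at 0.388, 0.979 and 3.14 CPM after IL1A+TNF (1.94, FDR = 0.109). Ccl5 was at 0.395, 0.142, 0.189, 0.201 and 0.255 CPM and at 0.37, 0.686 and 2.07 CPM (1.43, FDR = 0.168). Both overlapped at 1 or more retinas, and the treated eye was the higher one in 5 of 5 mice for each. Ccl8 (0.47, FDR = 0.557) and Ccl12 (-0.21, FDR = 0.794) overlapped as well. For Ccl8 1 treated retina was above every PBS retina, and for Ccl12 2 were below every PBS retina. Over the WT retinas of both batches, with batch as a term, 7 of 9 were higher, against 28% of 20154 genes, from Ccl6 at 3.34 to Ccl5 at 0.93. Ccl8 (0.54, FDR = 0.192) and Ccl12 (-0.29, FDR = 0.257) were not called. Ccl2 (1.46, FDR = 0.000221) and Ccl7 (1.46) lost their calls with the mouse as a fixed block (FDR = 0.109 and 0.0543).

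In Sarm1-/- retinas, 7 of 9 genes were higher after IL1A+TNF, the same 7 as in WT retinas of both batches, and Ccl12 was lower, against 21.6% of all genes higher and 22.3% lower. Ccl6 had 1.41, 2.78 and 8.88 CPM in the 6 PBS and 9.32, 38.2 and 125 CPM in the 6 IL1A+TNF retinas (3.66 ± 0.597, FDR = 1.81e-06). Ccl9 had 3.84, 4.85 and 9.75 CPM against 10.4, 19.7 and 37.2 CPM (1.95 ± 0.308, FDR = 1.02e-06). Only these 2 genes had no overlap, as was so for 2.91% of all genes in this direction.

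Ccl3 had 0.108, 0.518 and 0.755 CPM in Sarm1-/- PBS and 0.35, 2.22 and 4.57 CPM in Sarm1-/- IL1A+TNF retinas (2.41 ± 0.47, FDR = 2.6e-05). Ccl4 had 0.0839, 0.245 and 0.513 CPM against 0.297, 1.12 and 1.46 CPM (2.05 ± 0.473, FDR = 0.000269). Ccl5 had 0.214, 0.248 and 0.366 CPM against 0.201, 0.791 and 3.13 CPM (1.66 ± 0.444, FDR = 0.00154). In each of the 3 the groups overlapped at the lowest treated retinas. Ccl2 had 1.28, 2.17 and 12.1 CPM against 3.07, 6.96 and 30.9 CPM (1.53 ± 0.452, FDR = 0.00412), and a PBS retina at 12.1 CPM was above the treated median. Ccl7 had 0.386, 0.532 and 1.71 CPM against 0.347, 1.2 and 6.06 CPM (1.15 ± 0.486, FDR = 0.0463).

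Ccl12 had 0.668, 1.87 and 3.5 CPM in Sarm1-/- PBS and 0.41, 1 and 2.36 CPM in Sarm1-/- IL1A+TNF retinas (-0.77 ± 0.312, FDR = 0.0372), where its decrease passed the test. The groups overlapped, and the treated eye was the higher one in 2 of 6 mice. Ccl8 had 0.0951, 0.152 and 0.722 CPM against 0.0699, 0.117 and 0.274 CPM (-0.72 ± 0.58, FDR = 0.325). With batch 2 alone, 5 genes were called, and Ccl2 (1.54, FDR = 0.0571), Ccl7 (1.3, FDR = 0.11) and Ccl12 (-0.78, FDR = 0.179) were not. The calls of Ccl7 and Ccl12 were each lost in 6 of 12 fits that left out 1 retina, with FDR values of up to 0.239 and 0.161. Neutrophil markers summed to 4.28, 13.4 and 87.8 CPM in Sarm1-/- PBS and 85.2, 235 and 536 CPM in Sarm1-/- IL1A+TNF retinas, beside 135, 264 and 581 CPM in WT IL1A+TNF retinas of batch 2, and their part was not tested.

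Among the Sarm1-/- IL1A+TNF retinas, replicates 4 and 5 stood apart in markers of retinal ganglion cells. The sum of 5 such markers was 85.4 and 69.2 CPM there and 236 to 496 CPM in the other 4 retinas, against 490 to 541 CPM in Sarm1-/- PBS retinas. The same 2 retinas had the highest levels of Ccl2 (18.1 and 30.9 CPM), Ccl5 (2.95 and 3.13 CPM), Ccl6 (125 and 111 CPM), Ccl7 (4.28 and 6.06 CPM), Ccl9 (36.7 and 37.2 CPM) and Ccl3 (3.83 and 4.57 CPM) in their group. Without them, a choice made after seeing the data, 4 of the 8 calls against Sarm1-/- PBS remained. These were Ccl6 (2.98, FDR = 0.00026), Ccl9 (1.57, FDR = 0.000387), Ccl3 (1.82, FDR = 0.00606) and Ccl4 (1.75, FDR = 0.0145), whereas Ccl2 (0.73, FDR = 0.303), Ccl5 (0.68, FDR = 0.311), Ccl7 (0.23, FDR = 0.825) and Ccl12 (-0.83, FDR = 0.101) lost theirs. Replicates 4 and 5 were female, so leaving them out also removed 2 of the 3 females of the group. The other female, replicate 3, had a ganglion cell sum of 236 CPM. The male replicates 1, 2 and 6 had 496, 457 and 414 CPM. The part of sex was not tested.

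Between the genotypes, no CC chemokine was called. In PBS retinas 0.0397% of all genes (8 genes) differed, and Ccl12 was the 1 chemokine with an unadjusted p under 0.05 (Sarm1-/- minus WT 0.7 ± 0.293, p = 0.0187, FDR = 0.88, limma), as also 1 was with edgeR. In IL1A+TNF retinas 15.6% of all genes differed, and 2 chemokines had an unadjusted p under 0.05, against 4 with edgeR. These were Ccl2 (1.06 ± 0.4, p = 0.00996, FDR = 0.0592, limma) and Ccl8 (-1.15 ± 0.532, p = 0.0341, FDR = 0.136, limma). Without Sarm1-/- IL1A+TNF replicates 4 and 5, Ccl2 differed by 0.26 (FDR = 0.821) and Ccl8 by -0.91 (FDR = 0.474). Between the full groups, with replicates 4 and 5 included, 11.1% of all genes were called lower in Sarm1-/-. So were 5 of 5 ganglion cell, 5 of 7 endothelial and pericyte and 4 of 8 microglia markers, and their part was not tested. Ganglion cell sums were 85.4 and 69.2 CPM in replicates 4 and 5 and 236 to 496 CPM in the other 4. Marker calls without replicates 4 and 5 are not reported here. Ccl2 passed under a filter of at least 1 CPM on average (1.07, FDR = 0.0494) and in 5 of 22 fits that left out 1 retina (FDR from 0.011 to 0.333). The test of the difference in response between the genotypes called 8.72% of all genes and no chemokine. With limma no chemokine had an unadjusted p under 0.05, and with edgeR 1 had (Ccl5). Ccl8 had the largest fitted difference in response (-1.27 ± 0.681, p = 0.0661, FDR = 0.254, limma), and Ccl5 followed with 0.73. Without Sarm1-/- IL1A+TNF replicates 4 and 5, none was called either, with Ccl8 at -1.02 (FDR = 0.556), Ccl7 at -1.25 (FDR = 0.379) and Ccl5 at -0.27 (FDR = 0.846), on the other side of 0. The standard errors were large beside these values, so equal responses were not shown.

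The 9 genes lie near the deleted gene, in a stretch of chromosome 11 that can keep flanking sequence of another strain in a knockout line. Of 445 genes tested within 10 Mb of Sarm1, 5 (1.12%, Sarm1 itself included) were among the 8 called between the PBS retinas, against 0.0397% of all genes. Between the IL1A+TNF retinas 81 (18.2%) were called, against 15.6% of all genes. A called difference in response was found for 28 (6.29%), against 8.72% of all genes. None of these was a CC chemokine. Whether such sequence surrounds the deletion in these mice was not tested.

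The receptors of these ligands moved in the same comparisons. Of 11 CC receptor genes, 6 could be tested after IL1A+TNF, of which 4 were higher, Ccr1, Ccr2 and Ccr7 among them, and 1, Ccr9, was lower (-0.5, FDR = 0.0151), beside 25% of all genes higher and 25.5% lower. Ccr1, the receptor of Ccl3, Ccl5, Ccl6 and Ccl9, had medians of 2.26 CPM in PBS, 5.22 in TNF, 15.2 in IL1A and 15.4 in IL1A+TNF retinas (IL1A+TNF against PBS 2.8 ± 0.287, FDR = 2.67e-12). Ccr2, the receptor of Ccl2, Ccl7 and Ccl12, had medians of 3.6, 26.3, 37.1 and 34.4 CPM (3.32, FDR = 2.45e-08). Ccr2 was also 1 of the monocyte markers. Ccr7, which guides dendritic cells and lymphocytes, had medians of 0.0556, 0.618, 0.544 and 0.956 CPM (3.71, FDR = 1.12e-07).

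Ccr1, Ccr2 and Ccr7 were also called after IL1A (2.64, 3.34 and 3.15) and after IL1A+TNF in Sarm1-/- retinas (2.83, 2.74 and 2.56). No receptor was called after TNF, where Ccr7 had 2.55 (FDR = 0.0843) and Ccr2 1.89 (FDR = 0.175). In PBS retinas, Ccr1 and Ccr2 were lower at day 14 (-3.57 and -3.71) and at day 35 (-4.44 and -6.66) than at day 2.

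Of 13 further CC ligand genes, 7 could be tested after IL1A+TNF. Ccl22 (2.43) and Ccl24 (2.92) were higher and Ccl27a (-0.22) was lower, shares near those of all genes (25% and 25.5%). After IL1A, beside 12% of all genes, Ccl11 (1.21), Ccl22 (2.51) and Ccl24 (2.66) were higher, and after TNF none was called. Of 4 atypical receptors, which bind chemokines without the usual signal, Ccrl2 was higher after IL1A+TNF (1.64) and IL1A (1.2), and Ackr1 was lower after IL1A+TNF (-0.13). Of 12 transcription factors known to act at chemokine genes, 10 were higher after IL1A+TNF, against the same 25% of all genes, among them Irf7 (2.49), Irf1 (2.07), Cebpb (1.11), Nfkb2 (0.9), Relb (0.75) and Jun (0.68), and Fos and Irf3 were not called. After IL1A 9 were higher, and after TNF none. In Sarm1-/- retinas 10 of 12 were higher after IL1A+TNF.

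**Figure D4:**
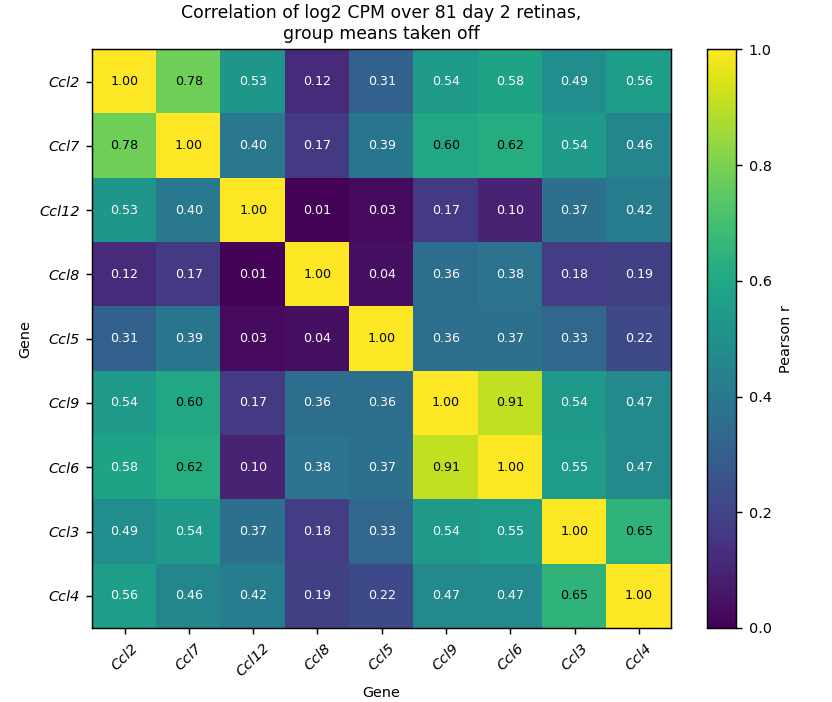
Pearson correlation of log2 CPM between the 9 CC chemokines over the 81 day 2 retinas, after the mean of each of the 8 groups was taken off, in chromosome order; the colour scale gives r. Ccl6 with Ccl9 (0.91) and Ccl2 with Ccl7 (0.78) are the strongest pairs.

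Similarity from retina to retina within a group differed widely between pairs of genes. Over the 81 day 2 retinas, after the mean of each of 8 groups was taken off, r of the 36 pairs ran from 0.01 to 0.91 with a median of 0.4, and 12 pairs were over 0.5. Ccl6 and Ccl9 had r = 0.91, Ccl2 and Ccl7 0.78, and Ccl3 and Ccl4 0.65, each pair being neighbours on the chromosome. Other neighbours had lower values, with r = 0.4 for Ccl7 and Ccl12, 0.36 for Ccl5 and Ccl9 and 0.01 for Ccl12 and Ccl8, and Ccl6 and Ccl7, which are not neighbours, had 0.62. Ccl12 had r = 0.03 with Ccl5 and 0.53 with Ccl2. These values are descriptions over retinas that share mice and batches, and the part of low counts in them was not tested.

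The genes most like each chemokine were sought among 15155 others over the same retinas. For Ccl6 they were Tyrobp, Laptm5 and Fcgr3, all at r = 0.94, and for Ccl9 the same 3 genes at 0.89 to 0.9, all of them expressed by myeloid cells. Ccl2 was most like Cxcl1 (0.87), a neutrophil attractant, Icam1 (0.81), an adhesion molecule of endothelium, and Ptx3 (0.79). Ccl7 was most like Pim1 (0.72), Srgn (0.71) and Slpi (0.71). Ccl3 was nearest to Fgr (0.69), Tagln2 (0.66) and the NF-kB subunit Relb (0.65). Ccl4 was nearest to the early response gene Egr2 (0.65), Lrrc2 (0.63) and Socs3 (0.61), a feedback inhibitor of cytokine signals. Ccl5 was most like Lrrfip1 (0.64), Hmga2 (0.63) and Clcf1 (0.63), Ccl8 most like Csrp1 (0.66), Selenop (0.63) and Tpm2 (0.62), and Ccl12 most like S100a16 (0.67), Fas (0.65) and Lmo1 (0.65).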

How the data were processed

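Whole mouse retinas were sequenced as poly(A) RNA libraries. Per the labels, the authors used STAR 2.7.9a on the build mm10 and featureCounts of Subread 2.0.1, and they deposited raw counts for 37315 genes, which are the only values used here. Whether strand was used in counting is not given in the sources used here. The library totals, 30014757 to 79064488 counts, set the precision: a count of 10 in the shallowest library is 0.333 CPM, so the lower chemokines rest on few reads.

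Groups, days, batches, sexes and mice were taken from the labels. Genes with low counts were removed per fit (edgeR 4.0.16 filterByExpr, minimum count 10). Counts were scaled by the trimmed mean of M values and tested with limma 3.58.1 voom in R 4.3.3, with sex as a covariate and the mouse as a random block (duplicateCorrelation), after the study's own methods. Each contrast was refitted as a coefficient, and p-values were adjusted by Benjamini-Hochberg over all genes tested. The day 2 fit held 58 retinas and 19548 genes, the genotype fit all 81 day 2 retinas of both batches with a batch term, and the fit of PBS retinas over days 44 retinas without a block. Reported FDR values are from these fits unless edgeR or DESeq2 1.42.0 is named.

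Both eyes of 45 mice share an animal, which the labels give. Deviations of the 2 eyes from their group means had a median correlation of 0.211 (-0.326 to 0.596), over 0.1 in 29 of 45 mice. Retinas of 1 group came from separate mice, except at day 14, where the 7 PBS retinas came from 6 mice. No 2 libraries agreed within sampling noise.

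For each treatment against PBS at day 2, all 9 chemokines are named or given by range. In the other comparisons some chemokines are not named. The other named genes are members of lists of receptors, ligands, transcription factors and cell type markers, or the 3 genes most correlated with each chemokine. Some list members are not reported here. The members and lists were chosen with earlier results of these data known. The fit was tested on simulated counts. With 200 genes changed it found 87% of log2 changes of 1 for TNF against PBS at day 2 (19548 genes), 79.4% at day 14 (18023 genes), 76% for PBS at day 35 against day 2 (19372 genes) and 75.2% for Sarm1-/- against WT PBS (20154 genes). In the same order it made 13, 9, 12 and 11 false calls. The changed genes were drawn at random from all genes tested, and retinas were simulated without a mouse effect. These shares therefore do not give the power for the low chemokines. Positions come from GENCODE M21 on GRCm38 and start regions from RefSeq on GRCm38.p6. Alternatives were edgeR's quasi-likelihood test, DESeq2, DESeq2 size factors, no filter, a filter at a mean of 1 CPM, no block, the mouse as a fixed block, no sex term, other sets of retinas and leaving out each retina in turn.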

Additional observations from a re-analysis of the deposited data

Results flagged for a closer look

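Of 96 sets of values (1 chemokine in 1 group of 4 to 10 retinas, where any retina had a count), 19 had a retina far from the rest by Dixon's test, all of them high, in 12 retinas. Chance alone gives about 1 in 20 for independent, normally distributed values. These CPM cannot fall below 0, many lay near it, and the chemokines of a retina were correlated. So 19 of 96 cannot be set against that rate, and the retinas are listed as a description.

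The IL1A+TNF retina of replicate 2 in batch 1 had 115 CPM of Ccl6 (next 46.2), 2.44 CPM of Ccl7 (next 1.18) and 39.3 CPM of Ccl9 (next 25.4). Its neutrophil markers summed to 633 CPM, monocyte markers to 100 CPM and microglia markers to 305 CPM, each the highest of its 10 retinas. In batch 2, replicate 1 of the WT IL1A+TNF retinas had 1.53 CPM of Ccl4 (next 0.879), 107 CPM of Ccl6 (next 48.4), 0.876 CPM of Ccl8 (next 0.358) and 49 CPM of Ccl9 (next 27.4). Its neutrophil and microglia sums of 581 and 320 CPM, and its monocyte sum, were the highest of its 6 retinas. The part of these markers in the chemokine levels was not tested. Replicate 3 of the same group had 2.07 CPM of Ccl5 (next 0.923). In Sarm1-/- PBS retinas, replicate 1 had 12.1 CPM of Ccl2 (next 4.93).

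The TNF retina of replicate 4 at day 2 had 0.387 CPM of Ccl4 (next 0.157). At day 14, PBS replicate 1 had 0.253 CPM of Ccl3 (next 0.117), and PBS replicate 4 had 0.0293 CPM of Ccl8 with the others at 0. TNF replicate 4 of that day had 0.384 CPM of Ccl5 (next 0.223) and 0.165 CPM of Ccl7 (next 0.0276), and TNF replicate 1 had 0.0722 CPM of Ccl8 with the others at 0. At day 35, TNF replicate 5 had 0.388 CPM of Ccl5 (next 0.201), replicate 7 had 0.143 CPM of Ccl7 (next 0.0277), and replicate 1 had 0.0251 CPM of Ccl8, with the others at 0, and 0.201 CPM of Ccl12 (next 0.0831). These day 14 and day 35 values rest on few reads. Of 45 tests of whether a response differed between days, genotypes, sexes or treatments, none passed.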

How the results depend on the processing

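The counts of called chemokines changed by no more than 1.5 times with DESeq2 size factors, without a sex term and without a replicate block. With the mouse as a fixed factor (replicate block), which tests 8 genes and uses only mice with both eyes, 4 were called for IL1A+TNF against PBS, 2 for IL1A and 0 for TNF, for IL1A+TNF against TNF and for IL1A against TNF. In this block Ccl2 turned to -0.50 for IL1A+TNF against TNF and to 0.54 for TNF against PBS, and Ccl3 to 0.22 for TNF against PBS. In the other comparisons it moved no count by over 1.5 times. A filter at a mean of 1 CPM leaves only 3 chemokines, and called 3 of them for IL1A+TNF, IL1A, PBS at day 14, PBS at day 35, Sarm1-/- IL1A+TNF and WT in both batches, 2 for IL1A+TNF and for IL1A against TNF, 1 between genotypes after IL1A+TNF and 0 for TNF. DESeq2 called 4 for IL1A against TNF, 5 for Sarm1-/- IL1A+TNF and 2 for TNF, edgeR 5 and 3 for the last 2 of these, and the fit without a filter 4 for IL1A against TNF. All batch 1 days in 1 fit called 2 for IL1A+TNF against IL1A and 2 for TNF, and batch 2 alone 5 for Sarm1-/- IL1A+TNF. Apart from what the settings' own construction shows, the cause was not tested.

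Leaving out each retina in turn gave counts of 7 to 7 for IL1A+TNF, IL1A and WT in both batches, 0 to 3 for TNF and for IL1A+TNF against IL1A, 5 to 6 for IL1A+TNF against TNF, 3 to 8 for IL1A against TNF, 6 to 8 for Sarm1-/- IL1A+TNF, 4 to 5 for WT in batch 2 and 0 to 1 between genotypes after IL1A+TNF. Differences near 0 changed sign in these fits. For IL1A Ccl12 ran from -0.13 to 0.05 (above 0 at 0.01, 0.04 and 0.05), for WT in batch 2 Ccl12 from -0.41 to 0.11 (0.05 and 0.11), and for TNF Ccl2 from -0.20 to 0.13 (0.03 and 0.13) and Ccl3 from -0.29 to 0.11 (0.01 and 0.11). Leaving out mouse 60212 and restricting the day 2 PBS retinas by their opposite eye were chosen after seeing the data, and changed no count by over 1.5 times. Omitting the 2 Sarm1-/- IL1A+TNF retinas lowest in ganglion cell markers, also chosen then, left 4 called for Sarm1-/- IL1A+TNF and 0 between genotypes. Depth limits Ccl4, Ccl7 and Ccl8 most, which had counts of 0 in whole groups.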
